A study of Diospyros lotus with 24 samples.

Results

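Small RNA and mRNA were compared contig by contig in buds of the same 2 trees of the dioecious persimmon Diospyros lotus. The trees are the mother (labelled LF) and the father (labelled LM) of the KK family, both of the cultivar Kunsenshi. They gave 4 of the 24 libraries of the series: 1 bud small RNA and 1 bud mRNA library per tree, chosen by label alone. The mRNA of 18 progeny buds serves below as a second mRNA measure, without 1 library of 387 counts. Per the labels, mixed buds at the early differentiation of male and female primordia were collected on a pair of summer dates. The labels do not say which date a library came from, or whether both kinds of RNA came from the same buds. The mother and the father stand here as 2 trees with the same pair of measurements, and levels were not compared between them. Each kind of RNA has 1 tree of each sex, so the spread between trees includes any difference between the sexes.

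Messenger RNA is the polyadenylated product of genes, and its read density on a transcript follows how much of that transcript is present. Plant small RNAs are cut by Dicer-like enzymes from double-stranded RNA: microRNAs come from hairpin transcripts, and small interfering RNAs come largely from repeats, transposons and transcripts copied by RNA-dependent RNA polymerases. They guide Argonaute proteins to matching transcripts or chromatin. A small RNA library also takes up short fragments of ribosomal, transfer and organellar RNA. The title of the series names a small RNA from the Y chromosome as the sex determinant of persimmons. Both kinds of RNA were counted on one set of assembled sequences.

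Those sequences are contigs, stretches of transcript assembled from reads without a genome. They ran from 200 to 21792 bases in length, with a median of 309.0. Small RNA was counted on 421126 contigs and mRNA on 417827 of them, which form the comparison. No gene name is attached to a contig in the files, and 0 IDs matched the 27971 genes of the RefSeq annotation of assembly ASM1463336v1. Contigs are therefore described by length, level and rank, lists of small RNA pathway, ribosomal or floral genes could not be applied, and the tissue could not be checked by markers.

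The small RNA libraries held 19315399 counts in the mother and 14168901 in the father, against 6925001 and 6840388 counts in the mRNA libraries. Levels are CPM, counts divided by the library total and scaled alike in all libraries, and densities are CPM per kb of contig. A single count was worth 0.0518 and 0.0706 CPM of small RNA in the mother and the father, and 0.144 and 0.146 CPM of mRNA. A CPM of small RNA and a CPM of mRNA are shares of different libraries, so a ratio of them is relative to the library totals and is no number of molecules. Dividing both kinds by contig length leaves such a ratio unchanged, but ratios still differed with length, as given below. For the shares of the 4 parental library totals given below, the 95% Wilson interval reaches at most 0.0375 percentage points to either side, counting error alone.

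Small RNA touched more contigs than mRNA. At least 1 count of small RNA lay on 77.4% of contigs in the mother and 75.8% in the father, against 50.6% and 47.4% for mRNA. Much of that gap went with depth: at 3000000 counts per library the expected shares were 47.2% and 48.7% for small RNA and 41.4% and 38.9% for mRNA. Both kinds were counted on 44.2% of contigs in the mother and 41.1% in the father. Small RNA without mRNA was found on 33.2% and 34.7% of contigs, with median lengths of 261 and 266 bases. These contigs held 27.5% and 26.1% of all small RNA counts. mRNA without small RNA was found on 6.37% and 6.28% of contigs, which held only 3.22% and 3.31% of mRNA counts. The mRNA table has no contig at 0 in all of its libraries, so contigs without mRNA in a parent had a count in some other library.

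The leading contigs held more of the small RNA than of the mRNA. The 100 most counted contigs took 20.5% and 25.7% of small RNA in the mother and the father, against 9.33% and 11.7% of mRNA. To reach 50 percent of the counts took 2120 and 1403 contigs for small RNA, against 7526 and 6645 contigs for mRNA. Further down the order was turned round: the first 58502 contigs held 90.0% and 89.99% of small RNA, against 90.8% and 92.1% of mRNA. Small RNA also sat on shorter sequences. With contigs ordered by length, the middle small RNA count fell on a contig of 425 bases in the mother and 376 bases in the father, against 1391 and 1287 bases for the middle mRNA count. Contigs of 200 to under 300 bases, 47.2% of all, held 31.7% and 33.6% of small RNA and 10.98% and 12.2% of mRNA. Contigs of 2000 to under 4000 bases, 3.76% of all, held 9.79% and 9.02% of small RNA and 24.5% and 23.2% of mRNA.

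**Figure D1:**
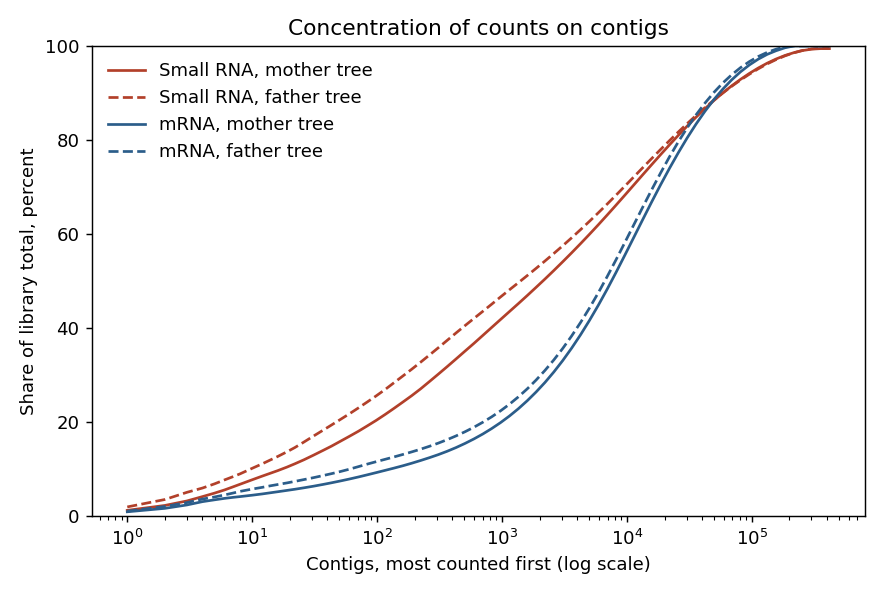
Share of each library total (y axis, percent) held by the most counted contigs (x axis, log scale), in red for small RNA and in blue for mRNA, solid for the mother tree and dashed for the father tree. Both small RNA curves rise before both mRNA curves and cross them near the top, reaching 50 percent at 2120 and 1403 contigs, against 7526 and 6645 contigs for mRNA.

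The most counted contigs of the 2 kinds overlapped in part. Of the 100 most counted in small RNA, 22 were also among the 100 most counted in mRNA in the mother and 31 in the father. Of the 1000 most counted, 115 and 154 were shared. Within a kind the trees shared far more: 74 of 100 for small RNA and 89 of 100 for mRNA. Of the contigs shared by the lists of 100, 18 of 22 in the mother and 27 of 31 in the father were under 500 bases. For the lists of 1000, 73 of 115 and 93 of 154 were under 500 bases. Of all contigs compared, 47.2% had 200 to under 300 bases and 24.7% had 300 to under 500 bases. Against all contigs, short ones were thus not in excess among those shared by the lists of 1000. Against the lists themselves the shared contigs were short. Their median length was 326 bases in the mother and 333.5 bases in the father. Contigs on the lists of 1000 of both trees had medians of 552.5 bases for small RNA and 1917 bases for mRNA. The 74 contigs leading small RNA in both trees held 18.04% and 22.8% of small RNA and 3.48% and 4.62% of mRNA. Their mRNA levels ran from 0 to 9499 CPM in the mother and from 0 to 10801 CPM in the father, with medians of 32.5 and 33.8 CPM. The same 74 contigs held 0.666% to 1.64% of mRNA in the 17 progeny, with a median of 0.982%, below both parents in every tree.

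Across contigs the level of small RNA was weakly related to that of mRNA. The Spearman correlation between the 2 kinds was 0.103 over 350010 contigs in the mother and 0.111 over 342899 contigs in the father, taking contigs with a count of either kind. Over all shared contigs it was 0.298 and 0.311, against 0.845 for small RNA in the 2 trees and 0.774 for mRNA in the 2 trees. Over contigs with at least 10 counts of each kind, where counting error is smaller, the Spearman correlation between the kinds was 0.009 in the mother (37964 contigs) and 0.002 in the father (31899 contigs). These correlations are descriptions across contigs, which share a library and a length and are no replicates.

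The sign of this weak relation depended on how length and zeros were treated. Longer contigs had more of both kinds: the Spearman correlation with length was 0.265 and 0.284 for small RNA and 0.611 and 0.589 for mRNA. Per kb of contig, the Spearman correlation between the kinds was -0.20 in the mother and -0.21 in the father. Over all shared contigs, with those at 0 in both kinds included, the value per kb was 0.090 and 0.096, and with at least 10 counts of each kind it was 0.058 and 0.127. Within length classes, contigs with a count of either kind gave -0.22 and -0.24 for 200 to under 300 bases, -0.18 and -0.18 for 300 to under 500 bases, and -0.14 to 0.058 from 500 bases upward. With contigs at 0 in both kinds included, the shortest class gave 0.084 and 0.080 and the next 0.023 and 0.030. None of these values has a replicate beyond the pair of trees.

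Each tree's small RNA was also set against the mRNA of the other trees. The mother's small RNA had a Spearman correlation of 0.103 with its own mRNA, 0.089 with the father's and 0.040 to 0.111 with the 17 progeny (median 0.062). The father's small RNA had 0.111 with its own mRNA, 0.120 with the mother's and 0.065 to 0.134 with the progeny (median 0.087). With at least 10 counts of each kind, the progeny gave -0.154 to -0.059 for the mother and -0.144 to -0.042 for the father. These lay below the 0.009 and 0.002 of the own trees. The mRNA of the other parent gave -0.017 for the mother's small RNA and 0.021 for the father's. Over all shared contigs the mother's own 0.298 lay above the 0.221 to 0.288 of the progeny and the 0.285 of the father. The father's own 0.311 lay within the 0.251 to 0.314 of the progeny and below the 0.319 of the mother. All values for a tree share its small RNA library, and the mRNA libraries differ in depth, from 3527282 to 15314430 counts in the progeny.

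**Figure D2:**
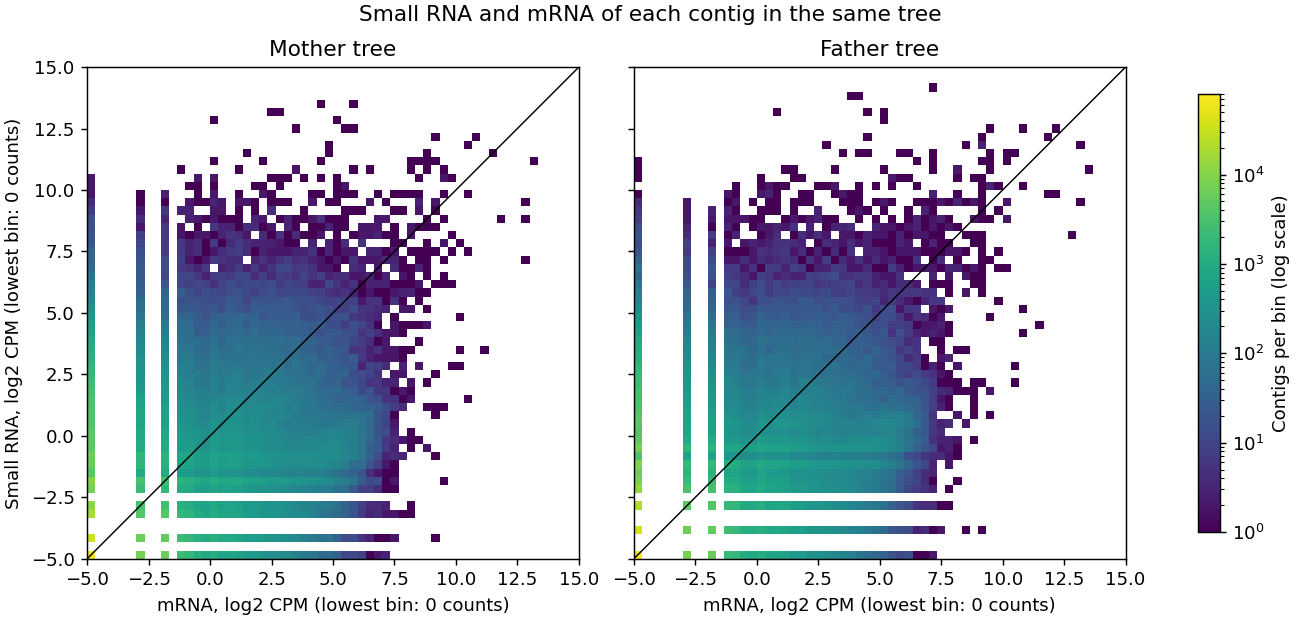
Small RNA (y axis, log2 CPM) against mRNA (x axis, log2 CPM) of each shared contig in the mother tree (left) and the father tree (right), coloured by the number of contigs per bin on a log scale; the lowest bin on each axis holds contigs at 0 counts and the line marks equal CPM. The cloud has little slope among contigs with a count of either kind, with Spearman correlations of 0.103 and 0.111. Over all contigs plotted, with those at 0 in both kinds included, the correlations are 0.298 and 0.311. A sparse arm of contigs high in both kinds stands at the upper right.

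Sorting contigs by their mRNA showed where the relation lay. Classes were set by mRNA CPM in the same tree. Median small RNA rose with the class, but contigs in higher classes were longer. From the class above 0 to under 1 CPM of mRNA to that of 10 to under 100 CPM, median small RNA was 0.155 and 0.673 CPM in the mother and 0.212 and 0.776 CPM in the father. Median length in these classes was 354 and 1595 bases in the mother and 371 and 1501 bases in the father. As a density, median small RNA was 0.411 and 0.430 CPM per kb in the mother and 0.440 and 0.517 CPM per kb in the father. Over the same step median mRNA density was 0.711 and 15.8 CPM per kb in the mother and 0.694 and 16.9 CPM per kb in the father. A large step in mRNA density thus went with almost level median small RNA density, though the lower class medians rest on 3 small RNA counts. Other summaries moved over this step. Upper quartiles were 1.31 and 0.911 CPM per kb in the mother and 1.20 and 0.982 in the father. Density pooled over contigs was 3.80 and 4.12 CPM per kb in the mother and 3.09 and 4.87 in the father.

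The exceptions were the classes at both ends. Contigs without an mRNA count had a median of 0.254 CPM per kb of small RNA in the mother and 0.322 in the father, with upper quartiles of 1.495 and 1.40, the highest upper quartiles below the top class. Their medians rest on 2 counts in the mother and 1 count in the father. Contigs of 100 CPM of mRNA and more, 628 in the mother and 642 in the father, had medians of 0.994 and 1.28 CPM per kb, with upper quartiles of 17.7 and 39.1. The Spearman correlation between the kinds within this class was 0.421 and 0.437. In the 3 classes between 0 and 100 CPM of mRNA it was 0.090 to 0.149 in the mother and 0.108 to 0.186 in the father. With at least 10 counts of each kind it was 0.077 and 0.073 at 1 to under 10 CPM. It was -0.078 and -0.057 at 10 to under 100 CPM, and 0.454 and 0.499 in the top class. Split by length, contigs above 0 to under 1 CPM gave -0.0997 to 0.025 in the mother and -0.096 to 0.023 in the father. Those of 1 to under 10 CPM gave -0.088 to 0.040 and -0.109 to 0.036. Those of 10 to under 100 CPM gave -0.178 to 0.166 and -0.098 to 0.181. The top class gave 0.239 to 0.554 and 0.210 to 0.563.

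**Figure D3:**
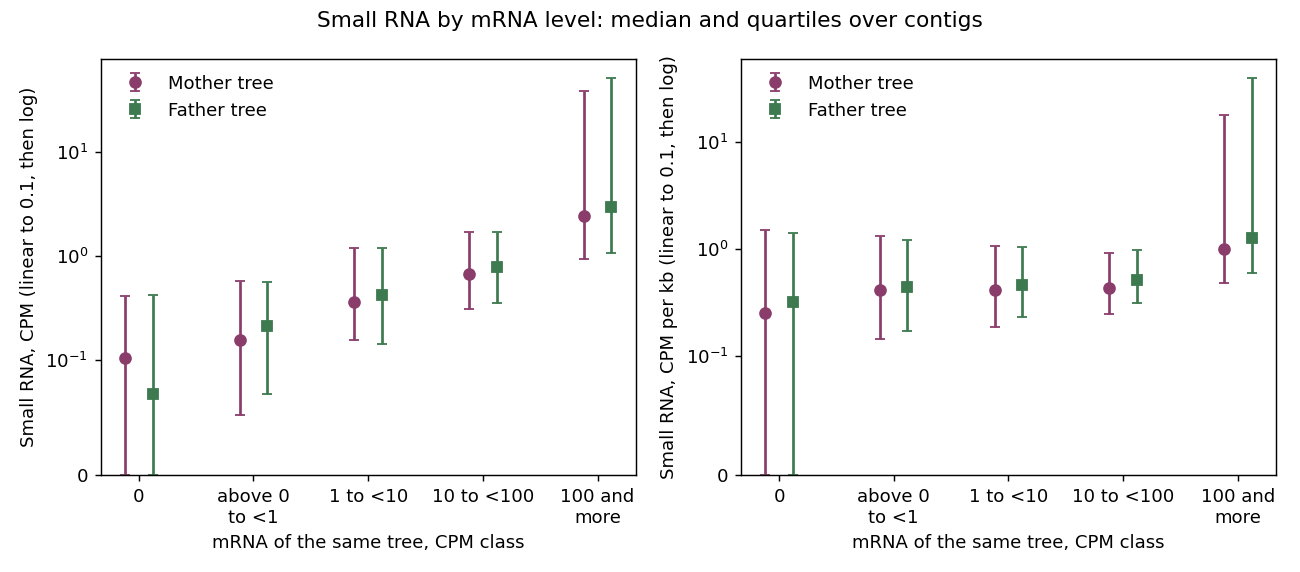
Small RNA as CPM (left) and as CPM per kb of contig (right) by class of mRNA CPM in the same tree, low to high; points are medians over contigs, bars run between the quartiles, circles stand for the mother tree and squares for the father tree. The medians climb on the left, and on the right they stay between 0.411 and 0.517 CPM per kb in the 3 classes between 0 and 100 CPM of mRNA.

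Splitting the top class by length separated its contigs. With 200 to under 300 bases and at least 100 CPM of mRNA, median small RNA density was 343 CPM per kb in the mother (101 contigs) and 505 in the father (115 contigs). At 300 to under 500 bases it was 10.5 and 10.4 CPM per kb. From 500 bases upward it was 0.506 to 1.19 CPM per kb in the mother and 0.610 to 1.29 in the father. At 500 to under 1000 bases these values, 1.19 and 1.29, still lay above the 0.425 and 0.527 CPM per kb of contigs with 10 to under 100 CPM of mRNA. In the class of 10 to under 100 CPM the shortest contigs had 0.770 and 0.921 CPM per kb. Contigs of 2000 to under 4000 bases had 0.561 and 0.574 CPM per kb of small RNA where mRNA was above 0 and under 1 CPM, 0.388 and 0.462 where it was 10 to under 100 CPM, and 0.693 and 0.839 where it was 100 CPM and more.

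**Figure D4:**
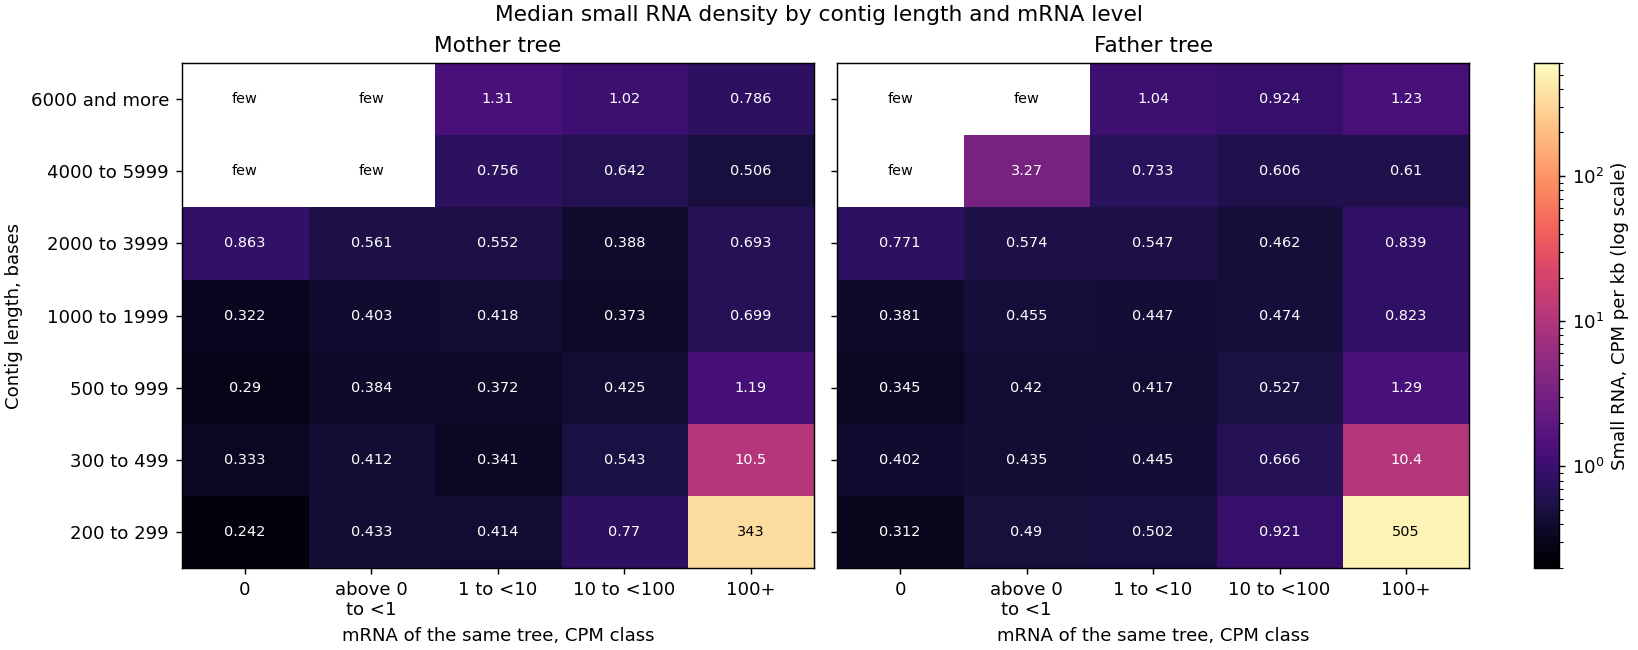
Median small RNA density (CPM per kb, printed in each cell and coloured on a log scale) by contig length (y axis, bases) and by class of mRNA CPM in the same tree (x axis), for the mother tree (left) and the father tree (right). The cell of the shortest contigs with the most mRNA stands out at 343 and 505 CPM per kb; white cells hold under 20 contigs and give no value.

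The short contigs with high mRNA were a mixed set. Of the contigs with at least 100 CPM of mRNA in both trees, 97 were under 300 bases long. Their median was 98.1 CPM of small RNA and 188 CPM of mRNA in the mother, and 145 CPM of small RNA and 246 CPM of mRNA in the father. Small RNA exceeded mRNA on 31 of the 97 in the mother and on 34 in the father, and mRNA was at least 10-fold higher on 39 and 34 of them. The quartiles of small RNA accordingly ran from 1.19 to 358 CPM in the mother and from 1.48 to 709 CPM in the father. The 97 contigs held 4.02% and 6.39% of small RNA and 5.15% and 6.17% of mRNA. By contrast, the 319 contigs of 1000 bases and more in this set had a median of 2.23 CPM of small RNA and 134 CPM of mRNA in the mother, and 2.82 CPM of small RNA and 131 CPM of mRNA in the father.

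This pattern was weaker when the mRNA level was taken from other trees. With classes set by the median mRNA of the 17 progeny, the 76 contigs of 200 to under 300 bases and at least 100 CPM had a median small RNA density of 9.97 CPM per kb in the mother and 16.9 in the father. The 278 contigs of 2000 to under 4000 bases in that class had 0.502 and 0.646 CPM per kb. The 97 short contigs above held 1.51% to 3.32% of mRNA in the progeny, with a median of 2.07%, below both parents in every progeny tree. They had been chosen by the parents' mRNA, and the part of that choice in the gap was not tested.

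Ratios of the 2 kinds were then taken within each tree. A ratio needed at least 10 counts over both kinds, which 178488 contigs had in the mother, 157891 in the father and 147175 in both. A count of 0 was set to 3 counts, the floor that it allows. In the mother and the father this floor was 0.155 and 0.212 CPM of small RNA, but 0.433 and 0.439 CPM of mRNA. A contig without mRNA thus needed a higher CPM of small RNA to pass 10-fold than the mRNA CPM needed by one without small RNA. Small RNA was at least 10-fold higher than mRNA on 16211 contigs in both trees, 11% of the contigs compared. mRNA was at least 10-fold higher on 30551 contigs in both trees, 20.8% of them. With a minimum of 50 counts in place of 10, the numbers were 15629 for small RNA and 18422 for mRNA. The gap between the 2 sides thus depended on the count minimum, and the part of the unequal floors in it was not tested. The middle of the distribution was broad: the quartiles of the log2 ratio were -3.06 and 2.02 in the mother and -3.05 and 2.17 in the father. Only 21.2% and 17.4% of contigs had the 2 kinds within 2-fold of each other.

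Ratios were alike in the trees. Log2 ratios in the mother and the father, from separate libraries, correlated at 0.944 (Pearson, 147175 contigs), and only 12 contigs were past 10-fold on opposite sides. The 16211 contigs made up 71.3% of those past 10-fold for small RNA in the mother and 78.2% in the father. The 30551 made up 73.8% and 85.5% of those past 10-fold for mRNA. Both trees were counted on the same contig sequences by the same procedure, and the part of the procedure in this likeness was not tested.

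**Figure D5:**
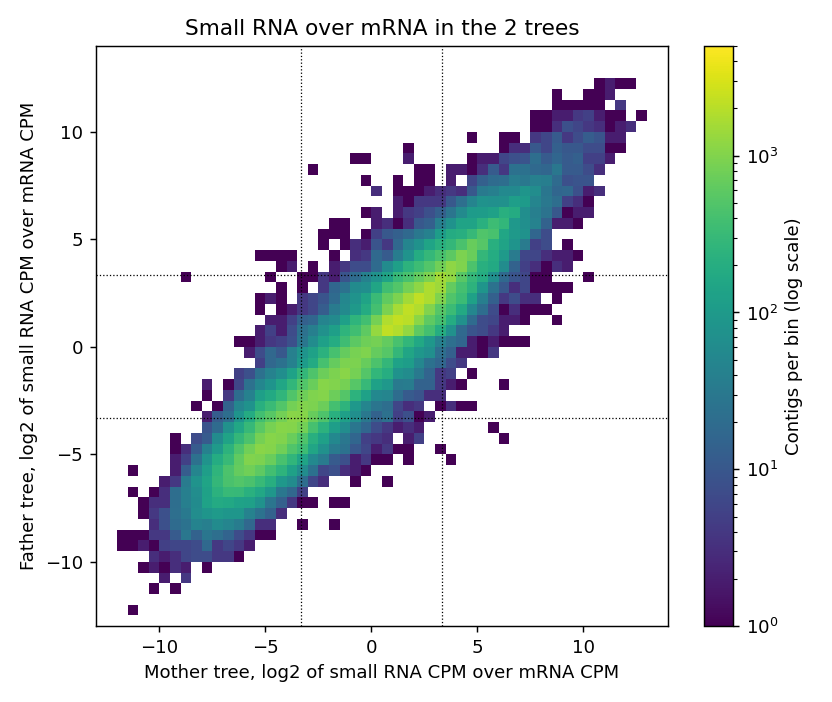
Log2 of small RNA CPM over mRNA CPM in the mother tree (x axis) and the father tree (y axis) for the 147175 contigs with at least 10 counts in each tree, coloured by contigs per bin on a log scale; dotted lines mark 10-fold either way. The contigs lie along the diagonal from mRNA-rich at the lower left to small RNA-rich at the upper right, with 12 in the opposite corners.

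Contigs past 10-fold took up most of one kind of RNA and little of the other. The 16211 rich in small RNA held 58.5% of small RNA and 0.611% of mRNA in the mother, and 54.2% of small RNA and 0.573% of mRNA in the father. The 30551 rich in mRNA held 1.36% of small RNA and 60.8% of mRNA in the mother, and 1.68% of small RNA and 62.4% of mRNA in the father. These shares follow from how the contigs were chosen. The progeny, whose mRNA was not used to choose them, gave 0.475% to 0.813% of their mRNA to the small RNA-rich contigs and 65.5% to 72.2% to the mRNA-rich ones.

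The 2 sets differed in length. Small RNA-rich contigs had a median of 314 bases and mRNA-rich contigs 845 bases. Of contigs of 200 to under 300 bases, 19.4% were small RNA-rich and 9.50% mRNA-rich. Of contigs of 2000 to under 4000 bases, 2.02% were small RNA-rich and 28.6% mRNA-rich. At 6000 bases and more the shares were 1.497% and 12.0%, or 15 and 120 of 1002 contigs. The median log2 ratio was 2.11 and 1.95 in the shortest class, and was lowest at 2000 to under 4000 bases, with -2.30 in the mother and -1.95 in the father. Median small RNA on small RNA-rich contigs was 11.1 and 9.81 CPM, and 56.8% and 59.7% of them had no mRNA count in the mother and the father. Contigs without an mRNA count needed small RNA at least 10-fold above the mRNA floor of 0.433 and 0.439 CPM. These medians thus follow in part from how the contigs were chosen.

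The highest ratios among contigs with at least 10 counts in all 4 libraries belonged to short and middle-sized contigs. Contig287653DeNovoAssembly, 354 bases long, had 9269 CPM of small RNA and 6.21 CPM of mRNA in the mother, and 15240 CPM of small RNA and 15.9 CPM of mRNA in the father. The ratios were 1493 (95% exact interval 1108 to 2063) and 956 (793 to 1165), and in the progeny mRNA was 0.515 to 4.50 CPM. Contig233501DeNovoAssembly, 295 bases long, had 9532 CPM of small RNA and 6.93 CPM of mRNA in the mother, and 15780 CPM of small RNA and 19.9 CPM of mRNA in the father. These were the contigs of ranks 4 and 3 for small RNA in the mother and of ranks 3 and 2 in the father. The next 3 in this list were 1636, 1657 and 1698 bases long, with ratios of 449 to 950.

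Most small RNA of all lay on a contig of 331 bases. It had 12600 CPM of small RNA and 57.2 CPM of mRNA in the mother, and 19836 CPM of small RNA and 129 CPM of mRNA in the father. It held 1.26% and 1.98% of all small RNA counted on contigs. In the 17 progeny its mRNA was 11.04 to 38.6 CPM, below both parents. Of the 5 contigs leading small RNA, 4 were 232 to 354 bases long and the other was 1593 bases. The one of 232 bases had 6685 and 9157 CPM of small RNA and only 8 and 13 mRNA counts, ratios of 5787 (95% exact interval 2937 to 13404) and 4818 (2818 to 9050).

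Some contigs had abundant small RNA and no mRNA count in either parent. There were 169170 contigs without mRNA in both parents. The first by small RNA, 218 bases long, had 28675 and 26598 small RNA counts, or 1485 and 1877 CPM. Against the floor of 3 mRNA counts per library its small RNA was at least 3427-fold higher in the mother and at least 4280-fold higher in the father. It had mRNA counts in 1 of the 17 progeny. The next 4, of 208 to 617 bases, had 593 to 2361 CPM of small RNA, and mRNA counts in 4 to 6 of the progeny, at most 1.21 CPM.

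Among contigs with at least 10 counts in all 4 libraries, the 5 lowest ratios belonged to contigs with abundant mRNA. These had 12 to 61 small RNA counts in a tree. Contig111597DeNovoAssembly, 2029 bases long, had 0.673 CPM of small RNA and 309 CPM of mRNA in the mother, and 0.918 CPM of small RNA and 487 CPM of mRNA in the father. Its mRNA was 459-fold (95% exact interval 268 to 863) and 531-fold (310 to 998) above its small RNA, which rests on 13 counts in each tree. Contig108837DeNovoAssembly, 2270 bases long, had 2.80 CPM of small RNA and 1305 CPM of mRNA in the mother, and 4.31 CPM of small RNA and 1593 CPM of mRNA in the father. In the progeny these contigs had 113 to 431 and 824 to 1229 CPM of mRNA. The other 3 in this list, 333 to 883 bases long, had ratios of mRNA over small RNA from 290 to 410. The one of 883 bases had 301 and 291 CPM of mRNA in the parents, against 6.85 to 19.8 CPM in the progeny.

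The 5 contigs with most mRNA carried small RNA too. The first, 276 bases long, had 2112 CPM of small RNA and 9499 CPM of mRNA in the mother, and 3749 CPM of small RNA and 9973 CPM of mRNA in the father. In the other 4, of 216 to 1747 bases, small RNA was 132 to 768 CPM in the mother and 259 to 1794 CPM in the father, and mRNA exceeded it 8.13-fold to 53.3-fold and 4.69-fold to 29.0-fold. The progeny had 163 to 2041 CPM of mRNA on these 5 contigs, each tree below both parents on each contig. The contigs were chosen by the parents' mRNA.

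At the other end, 56946 contigs had no small RNA count in either parent. The one with most mRNA, 214 bases long, had 128 and 123 CPM. Against the floor of 3 small RNA counts per library its mRNA was at least 827-fold higher in the mother and at least 581-fold higher in the father. It had 34.3 to 90.1 CPM of mRNA in the progeny. The next 4 were 235 to 344 bases long, with 63.2 to 82.3 CPM of mRNA in the parents.

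The difference between the kinds was also tested against the spread between trees. With library totals as scaling, 111474 of 126570 contigs differed (88.1%, edgeR quasi-likelihood test, adjusted p under 0.05), 51194 with more small RNA (40.4%) and 60280 with more mRNA (47.6%). With so high a share called, a call says little about a single contig. The balance of directions depended on scaling: small RNA was the higher kind in 45.9% of calls with library totals, in 61.05% with TMM factors and in 65.8% with RLE factors. The median log2 fold change, small RNA over mRNA, was -0.68, 1.17 and 1.62 under these scalings, and 0.77 with library totals on contigs with at least 50 counts in 2 libraries. On the log2 scale Contig287653DeNovoAssembly was 10.1 higher in small RNA (SE 0.88; edgeR adjusted p = 4.34e-09, and 3.24e-86 to 0.00122 over 12 fits). Contig111597DeNovoAssembly had a difference of -8.96 (SE 0.58; edgeR adjusted p = 3.7e-10, and 2.68e-73 to 0.000933 over 12 fits). Both contigs were chosen by this ratio in the same libraries, so the values describe them. In 4 of the 12 fits 1 kind had a single library, which was assumed to vary like the other kind.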

How the data were processed

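The values are raw read counts per contig, as the authors deposited them, with lengths in bases listed beside those of small RNA. Per the labels' protocols, purified mRNA gave randomly primed cDNA, while a small RNA fraction was enriched with a kit before adapters were added. BWA, R 3.0.1 and DESeq 1.14 stand in the submitters' processing notes, which give no roles. How reads were assigned, how those with several matches were treated, which small RNA sizes were kept and whether strand was used is not given in the sources used here, so repeated sequences and antisense reads cannot be told apart. Flower small RNA was not analysed here.

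Tables were joined by contig name and CPM taken over all contigs of a table. edgeR 4.0.16 (limma 3.58.1, R 4.3.3) used filterByExpr, library totals and robust quasi-likelihood fits with Benjamini-Hochberg adjustment, and the SE is the fold change over the square root of F. Alternatives included DESeq2 1.42.0, limma-voom, TMM, RLE and other filters. Ratio intervals are exact conditional limits and, like the floors, cover counting error only, since reads carry no molecular identifiers. The code was tested on simulated data.

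The titles show that both kinds come from the same tree, which pairs them. The mother over father log2 differences of the 2 kinds correlated at 0.0958 over 26556 contigs with at least 10 counts in each library. Named contigs are 5 from each of 6 lists, ranked by the less extreme tree: highest and lowest ratio with at least 10 counts in all 4 libraries, most small RNA, most mRNA, and most of either kind where the other has 0 counts in both parents. Lists overlap by 2 contigs. IDs are printed for at most 2 contigs per direction. Members, classes and lists were chosen with earlier results of these data known.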

Additional observations from a re-analysis of the deposited data

Results flagged for a closer look

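On 12 contigs the ratio of small RNA over mRNA was past 10-fold on opposite sides in the 2 trees. They were 205 to 4584 bases long and held 76 to 1580 counts over the 4 libraries. With 1 library of each kind per tree, the difference was not tested.

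The contigs listed for small RNA alone, 3299 in number and outside the comparison, held 110487 small RNA counts in the mother and 71781 in the father, or 0.572% and 0.507% of these libraries. They were 200 to 414 bases long with a median of 220, and 2790 and 2737 of them had a count.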

How the results depend on the processing

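Values here are means over the 2 trees where no tree is named. The Spearman correlation between the kinds, 0.107, was 0.00565 with at least 10 counts of each kind, 0.076 with progeny mRNA and 0.305 over all shared contigs. As Pearson's r on log2 CPM it was 0.164, 0.148 and 0.161 at pseudocounts of 0.5, 0.1 and 1 CPM. It changed sign to -0.20 per kb, -0.23 per kb of length less 50 bases, -0.135 within length classes and -0.074 given length, all over contigs with a count of either kind. The ratio of median small RNA between mRNA classes of 10 to under 100 and above 0 to under 1 CPM, 4.00, was 1.63 with classes per kb, 2.35 with progeny classes and 1.13 within length classes. The ratio of median small RNA density at 2000 to under 4000 over 200 to under 300 bases, 1.71, was 0.963 within mRNA classes. Pooled over the contigs of a class, density went the other way. It was 6.70 CPM per kb in the shorter and 2.31 in the longer class in the mother, and 7.11 and 2.13 in the father. Shares of contigs with a count, 76.6% and 49.0% for small RNA and mRNA, were 47.9% and 40.2% at 3000000 counts and 27.4% and 17.5% at 10 counts. Shares of counts on 100 contigs, 23.1% and 10.5%, were 8.98% and 5.13% on 10 and 44.5% and 21.4% on 1000. The 16211 small RNA-rich contigs became 34821 at 4-fold and 15629 at 50 counts. The 30551 mRNA-rich ones became 45342 at 4-fold and 18422 at 50 counts. The 111474 edgeR calls became 47296 of 50190 tested with at least 50 counts in 2 libraries, as fewer contigs were tested. With tree as a block they were 109597. Leaving out 1 library gave 84021 to 122773, with the lone library of its kind assumed to vary like the other kind. Apart from these constructions the cause of a move was not tested. Values added after seeing the data were all shared contigs, the correlation given length, the share at 10 counts and counts under 3 set to 3. Depth limits medians of the shortest contigs, which rest on 1 small RNA count.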
